A study of Ciona robusta with 9 samples.

Results

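A group of 105 genes was lower in Ciona robusta (an ascidian) when whole embryos carried Etr1>Bra, and lay closer to the control level in embryos that carried Tbx6-r.b>Bra. The genes were chosen from 15284 gene models by their own values in these libraries. The change with Etr1>Bra in pair i (E) was the log2 ratio of the Etr1>Bra library to the control library of the same replicate number, on normalized read counts with 1 added to each. The change with Tbx6-r.b>Bra (T) was formed in the same way within its own table. A member had a mean control count of at least 50, a mean E of −0.5 or less, a value below 0 in all 3 pairs, and a mean T at least 0.3 above its mean E. Of the 9079 genes at the control floor, 139 met the conditions on E and 110 of these met the whole rule. The rule leaves out 8 listed IDs, 5 of which met it, and 105 genes remained. Because E and T chose the members, their sizes are a description, and no test is read from them.

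The study placed Bra under regulatory DNA of other tissues. All embryos were electroporated as fertilized eggs, grew at 21 °C in artificial seawater and were collected at Hotta stage 19.5, with 400 embryos per sample. The control group received Bra>GFP, in which regulatory DNA of Bra drives GFP. The other groups received Etr1>Venus-Bra or Tbx6-r.b>Venus-Bra, each a Venus-Bra fusion, and each group had 3 libraries described as biological replicates. Separate fertilizations are not stated for the replicates, and p-values then cover only how these samples vary, which may be technical. A construct with either driver but lacking Bra was not among the groups, and whole embryos were sequenced, so fewer cells of a type and less RNA per cell cannot be told apart.

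Brachyury (Bra) is a T-box transcription factor that specifies the notochord, the stiff rod along the axis of the tadpole tail. In Ciona its own gene is normally active in notochord cells. Etr1 encodes an RNA-binding protein of the CELF family that marks the nervous system of ascidians, and Tbx6-r.b encodes a T-box factor of the tail muscle lineage. A neural promoter that expresses Bra therefore places a notochord regulator in cells of the nerve cord and brain, and a muscle promoter places it in the tail muscle.

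The KH gene IDs come without names in the files, and a RefSeq gene table of the species matched 0 of them. Members are therefore given by ID, without roles, and lists of neural, muscle, notochord, epidermal, endodermal, mesenchymal and ciliary genes could not be counted among them. Libraries held 9043181 to 10399304 gene-assigned reads. Over the genes at the control floor, the median of the mean E was −0.03 and that of the mean T −0.02. The deposited scaling matched a median of ratios within each table, which centres such medians near 0. Values are normalized read counts, on the scale of the Etr1>Bra table for control and Etr1>Bra libraries and on that of the other table for Tbx6-r.b>Bra libraries.

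Across the members, the fall with Etr1>Bra was moderate and varied widely between libraries. The median of the mean E was −0.71, with a range of −1.69 to −0.51, and 11 members were at −1 or lower. The median of the mean T was −0.08, with a range of −1.12 to 0.35, and 95 members lay within 0.25 of 0. The mean T exceeded the mean E by 0.64 at the median, by at least 0.5 in 74 members and by at least 1 in 14. The label given to the group, genes lost mainly with neural-driven Bra, thus describes a partial decrease rather than absence. Near the bound on mean E, KH.S735.1 at −0.51 was just inside and KH.C6.231 at −0.499 just outside. Near the bound on the difference, KH.C7.85 at 0.321 was just inside and KH.C5.173 at 0.298 just outside. Near the control floor, KH.C7.91 at 50.1 was just inside and KH.C11.200 at 49.8 just outside.

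**Figure D1:**
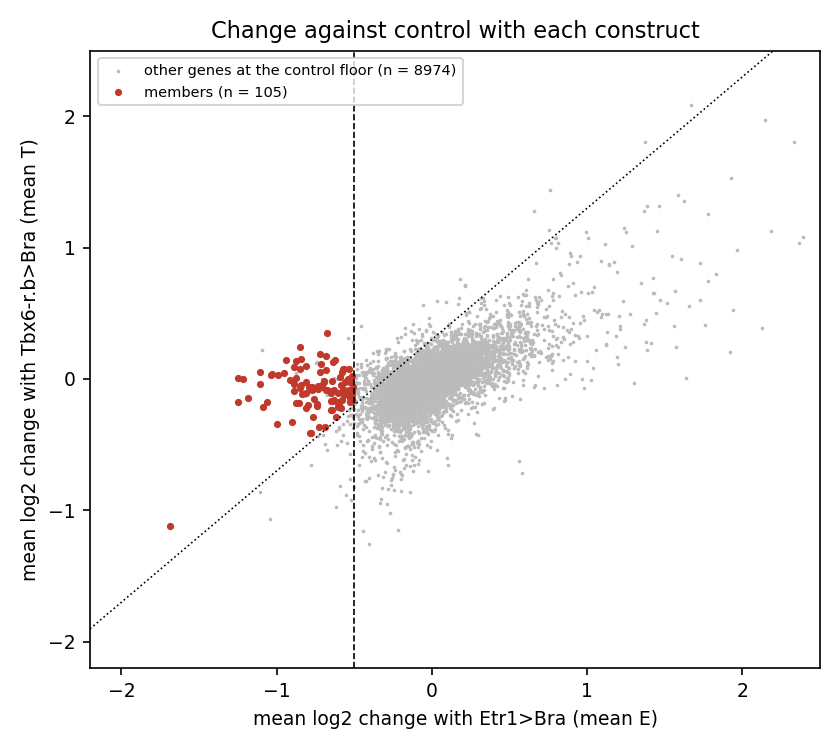
Each point is a gene with a control mean of at least 50; the x axis is its mean log2 change with Etr1>Bra and the y axis that with Tbx6-r.b>Bra (3 pairs each). The 105 members (red) lie left of the dashed bound at −0.5 and above the dotted bound 0.3 over the diagonal, most of them near 0 on the y axis. Grey points within both bounds are left-out IDs or genes with an E of 0 or more in a pair, and 6 genes lie outside the axes.

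On a common scale for all 9 libraries, the members' median log2 level relative to their control mean was 0.16, −0.06 and −0.07 in the control libraries. It was −0.17, −0.63 and −1.29 in Etr1>Bra replicates 1, 2 and 3, and 0.05, 0.01 and −0.18 in the Tbx6-r.b>Bra replicates. Over all genes at the floor, these medians lay between −0.03 and 0.004 in every library. Etr1>Bra replicate 3 held the lowest value of 89 members, replicate 2 that of 9 and replicate 1 that of 6. The rule favours low Etr1>Bra values and these counts were not computed over all genes, so they are not read as a result. Summed over the members, normalized counts made up 0.492% to 0.584% of a control library and 0.490% to 0.548% of a Tbx6-r.b>Bra library. They made up 0.428%, 0.349% and 0.207% of the Etr1>Bra libraries, as shares all below every control and every Tbx6-r.b>Bra library. The sums themselves overlapped, at 46441 in Etr1>Bra replicate 1 against 45031 in control replicate 3 and 42244 in Tbx6-r.b>Bra replicate 3. In Etr1>Bra replicates 2 and 3 they were lower, at 33300 and 20003. KH.C11.291 weighed heavily in them, with 18862 (scale of the Etr1>Bra table) beside a sum of 56561 in control replicate 1.

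**Figure D2:**
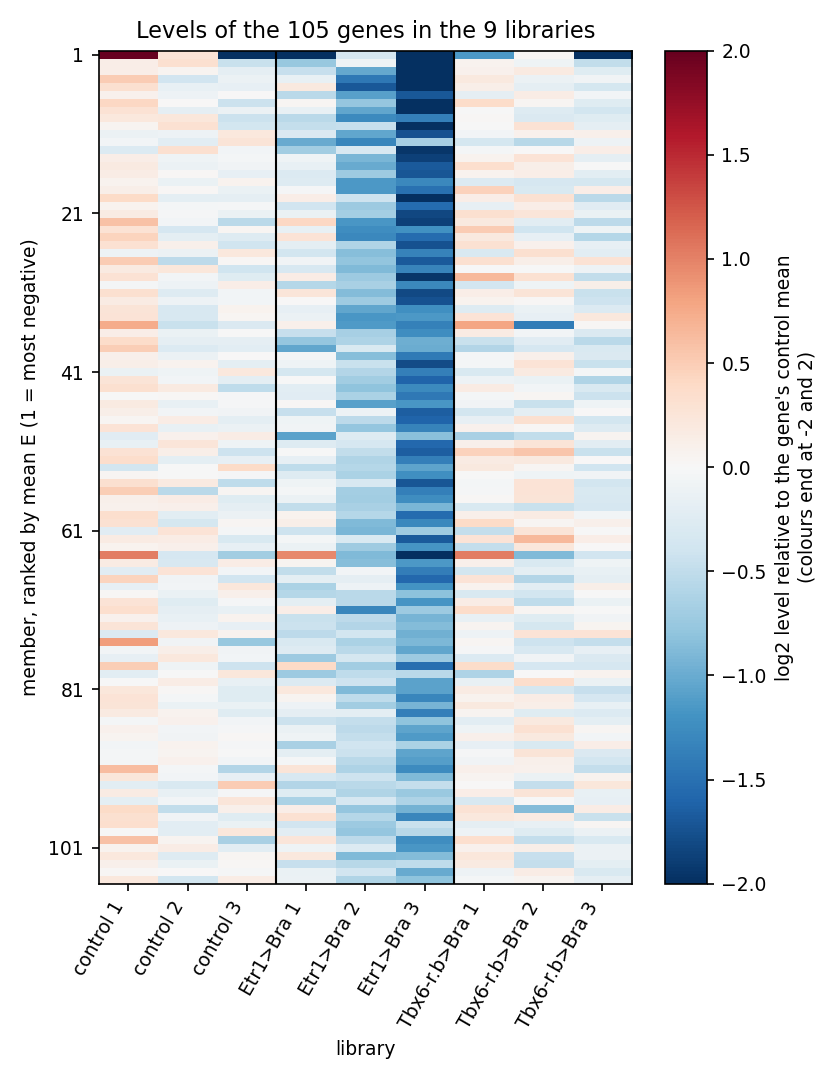
Rows are the 105 members ranked by mean E and columns the 9 libraries; colour is the log2 level relative to the gene's control mean on a common scale. Blue deepens in Etr1>Bra replicates 2 and 3, while the Tbx6-r.b>Bra columns stay pale for most rows.

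The member with the most negative mean E was an exception to this pattern. KH.C11.95 stood at 701, 203 and 32.3 in the controls, at 33.8, 132 and 29.8 with Etr1>Bra, and at 73.9, 167 and 34.6 with Tbx6-r.b>Bra. Control replicate 1 was the high value, the groups overlapped, and both constructs were far below that control in pair 1 (E of −4.33 and T of −3.21). Its mean E of −1.69 ± 2.30 (SD, n = 3 pairs) was smaller than its spread between pairs. Its E was −0.62 in pair 2 and −0.11 in pair 3, a mean of −0.37 without pair 1.

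The next members showed the pattern of the group. KH.S595.17 stood at 66.0, 62.7 and 53.1 in the controls, at 43.3, 29.2 and 11.9 with Etr1>Bra and at 63.4, 67.4 and 50.5 with Tbx6-r.b>Bra. All its Etr1>Bra libraries lay below all its controls, with replicate 3 lowest, and the Tbx6-r.b>Bra libraries overlapped the controls. Its mean E was −1.25 ± 0.75 and its mean T 0.005 ± 0.10, the largest difference in the group at 1.25. KH.C5.502 stood at 74.2, 64.6 and 70.2 in the controls, at 47.6, 32.2 and 20.8 with Etr1>Bra, and at 60.2, 76.1 and 66.3 with Tbx6-r.b>Bra. Here too no Etr1>Bra library reached a control, and its mean E was −1.11 ± 0.55.

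In other members of this rank the Etr1>Bra libraries overlapped the controls. KH.S363.2 stood at 112, 128 and 75.0 in the controls, at 60.2, 96.6 and 12.9 with Etr1>Bra, and at 106, 95.6 and 72.0 with Tbx6-r.b>Bra. Replicates 1 and 3 were below every control and replicate 2 was within them, and the mean E was −1.25 ± 1.07, or −0.65 without pair 3. KH.C7.431 stood at 145, 78.9 and 94.0 in the controls, at 92.0, 37.2 and 23.8 with Etr1>Bra, and at 116, 93.5 and 96.3 with Tbx6-r.b>Bra. Replicates 2 and 3 were below every control and replicate 1 was not (mean E −1.22 ± 0.66). KH.C10.602 stood at 133, 96.0 and 94.9 in the controls, at 123, 32.2 and 24.8 with Etr1>Bra, and at 114, 92.4 and 82.2 with Tbx6-r.b>Bra. Its Etr1>Bra replicate 1 lay within the controls, while replicates 2 and 3 were below every control (E of −1.55 and −1.89).

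The most abundant members had little counting error and showed the same order of libraries. KH.C11.291, the most abundant, stood at 18862, 15293 and 13220 in the controls, at 16249, 11032 and 6305 with Etr1>Bra, and at 16184, 17127 and 12164 with Tbx6-r.b>Bra. Etr1>Bra replicate 1 lay within the controls and replicates 2 and 3 below them, for a mean E of −0.58 ± 0.44 and a mean T of −0.04 ± 0.20. KH.C9.224 stood at 2875, 2641 and 2309 in the controls, at 2135, 1561 and 789.5 with Etr1>Bra, and at 2682, 2827 and 2207 with Tbx6-r.b>Bra. Its groups of control and Etr1>Bra libraries did not overlap, and its mean E was −0.91 ± 0.57 against a mean T of −0.01 ± 0.11.

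KH.C6.145 had the tightest controls of these, at 2907, 2884 and 2831, and stood at 2618, 2202 and 1421 with Etr1>Bra and at 2644, 3141 and 2297 with Tbx6-r.b>Bra. All Etr1>Bra libraries lay below all controls, and the Tbx6-r.b>Bra libraries fell on both sides of them. KH.C14.4 stood at 2949, 3304 and 2691 in the controls, at 2445, 2226 and 1416 with Etr1>Bra, and at 2626, 3754 and 2667 with Tbx6-r.b>Bra. This gene too had no overlap between Etr1>Bra and control (mean E −0.59 ± 0.33, mean T 0.02 ± 0.18).

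**Figure D3:**
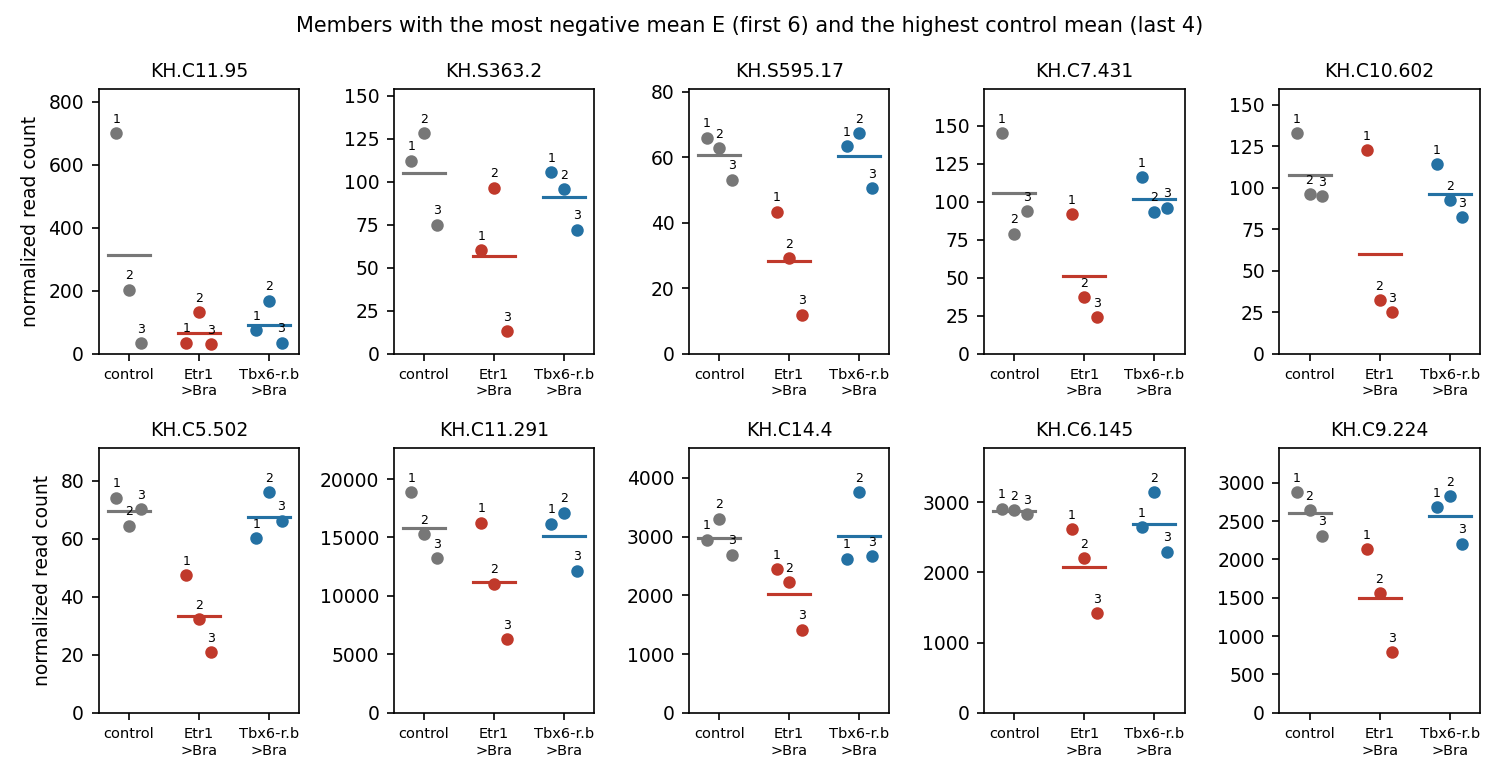
Normalized read counts of 10 members in each library (points, numbered by replicate) with the group mean (line); the y axes start at 0 and differ between panels. Etr1>Bra replicate 3 is the lowest of the 9 libraries in every panel, from 11.9 in KH.S595.17 to 6305 in KH.C11.291.

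The depth of the fall differed between the pairs of libraries. Over the members, pairs 1, 2 and 3 had a median E of −0.35, −0.58 and −1.19. At least a 2-fold decrease was seen in 4, 12 and 68 members in these pairs. The median T was −0.15, 0.02 and −0.09, and 81, 48 and 66 members had a T below 0. Of all genes at the floor, 52.8%, 52.2% and 51.7% did. The rule shapes the counts of members, since T uses the controls of E and the rule bounds T minus E. The fall was deepest in pair 3 in 91 members, in pair 2 in 8 and in pair 1 in 6. Among all 1727 genes at the floor with 3 negative E values, 46.0% had their deepest fall in pair 3. Those genes need not have a mean E of −0.5 or less, as members must. More genes fell to −0.5 or lower in pair 3 than in the other pairs, so that bound can favour genes deepest there. Within single members the deepest E was 4.66 times the shallowest at the median. In 43 members E in pair 3 was at least 1 below that in pair 1, and the SD of E over pairs had a median of 0.50 against 0.21 for T. The rule used E and T, and the 2-fold counts, the count of 43 and the SDs were not computed over all genes.

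Pair 3 also showed more change with Etr1>Bra over all genes. At the floor, 527 genes had an E of −0.5 or less in pair 3, against 404 in pair 1 and 197 in pair 2. The corresponding counts for T were 188 in pair 3, 282 in pair 1 and 464 in pair 2, so the order of the pairs differed between the constructs. Without pair 3, the median of the mean E over the members was −0.47 and that of the mean T −0.04. By those 2 pairs, 46 members were at or below −0.5 and 77 kept a difference of at least 0.3.

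**Figure D4:**
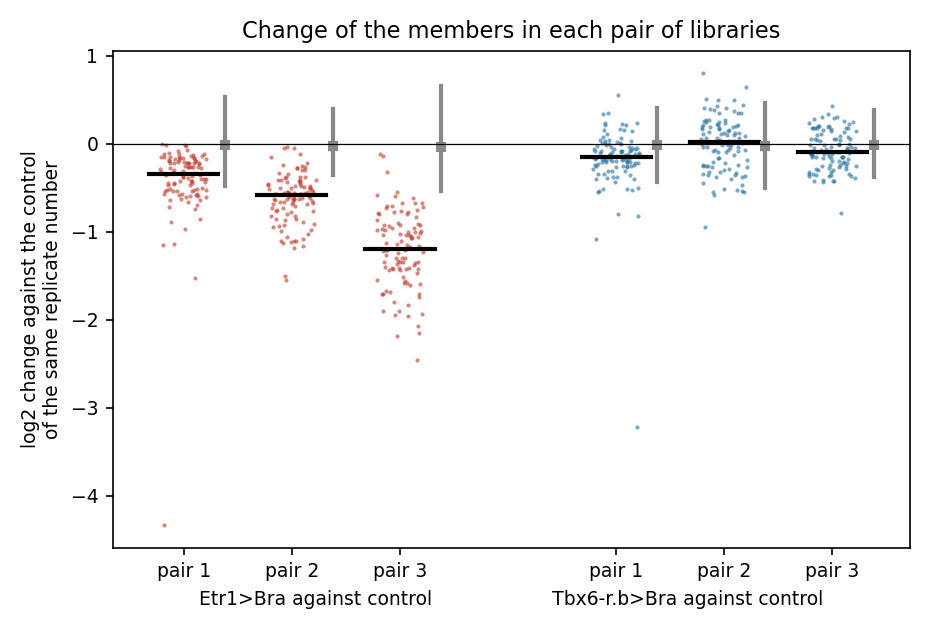
Points are the 105 members; the y axis is the log2 change against the control library of the same replicate number, and black lines are medians (−0.35, −0.58 and −1.19 with Etr1>Bra). Grey bars span the 5th to 95th percentile of all 9079 genes at the floor, with a square at their median.

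In 6 members the fall was deepest in pair 1, namely KH.C11.95, KH.L71.1, KH.C5.407, KH.C6.290, KH.C9.638 and KH.C11.195, named after their values were seen. Control replicate 1 was the highest control in all 6, and in 63 of the other 99 members. T in pair 1 was below 0 in 5 of the 6, with a median of −0.81. Both values use control replicate 1, which also enters E in pair 1, so the choice of these 6 favours them. The rule used the control values of all members, and the share with control replicate 1 highest was not computed over all genes. KH.C5.407 stood at 157, 92.2 and 95.8 in the controls, at 53.9, 89.6 and 55.5 with Etr1>Bra, and at 72.9, 86.9 and 88.8 with Tbx6-r.b>Bra. Both constructs lay below all controls, by a mean E of −0.78 ± 0.74 and a mean T of −0.41 ± 0.58. KH.L71.1 stood at 120, 81.7 and 81.6 in the controls, at 53.9, 60.4 and 46.6 with Etr1>Bra and at 66.5, 78.3 and 62.6 with Tbx6-r.b>Bra. This gene again had both constructs below every control (mean T −0.41 ± 0.39). The part of control replicate 1 in the fall of the members was not tested.

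At the other end were members whose level with Tbx6-r.b>Bra was above control. KH.L153.77 had the highest mean T, 0.35 ± 0.21. It stood at 94.8, 94.1 and 68.3 in the controls, at 82.4, 68.4 and 25.8 with Etr1>Bra, and at 101, 133 and 91.6 with Tbx6-r.b>Bra. KH.C3.88 had a mean T of 0.24 ± 0.42, with 148, 128 and 145 with Tbx6-r.b>Bra against 170, 82.7 and 121 in the controls and 114, 68.4 and 36.7 with Etr1>Bra. KH.L96.43 stood at 91.9, 97.8 and 48.6 with Tbx6-r.b>Bra against 82.4, 73.2 and 50.3 in the controls, for a mean T of 0.19 ± 0.23. In all 3 the Tbx6-r.b>Bra libraries overlapped the controls. KH.C2.917, whose difference between mean T and mean E was 1.15, stood at 148, 112 and 82.6 in the controls, at 114, 64.4 and 17.9 with Etr1>Bra, and at 141, 113 and 92.5 with Tbx6-r.b>Bra. Its Tbx6-r.b>Bra libraries lay within the range of its controls.

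Over the whole group, T was below 0 in every pair in 20 members and above 0 in every pair in 5, where 12.9% and 10.1% of all genes at the floor did so. The mean T was below 0 in 77 members, against 56.8% of all genes. E and T share the control libraries and the rule bounds T minus E, so the rule shapes the counts of T given here. All 3 Tbx6-r.b>Bra libraries were below all controls in 5 members, KH.S406.19, KH.L71.1, KH.C5.407, KH.C2.48 and KH.C7.85, where 3.29% of all genes were, and above all controls in 0 (2.87% of all genes). For Etr1>Bra this held in 47 of 105 members against 3.72% of all genes, a count the rule favours. Etr1>Bra replicate 3 alone was below every control in 105 members (31.8% of all genes at the floor), replicate 2 in 95 (26.6%) and replicate 1 in 50 (29.3%), counts that the rule also favours. T exceeded E in all 3 pairs in 78 members, against 7.52% of all genes, which the rule again favours.

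To read the change in libraries that had no part in choosing genes, the rule was applied to 2 pairs at a time and the genes it found were examined in the third. With pair 3 left out, 48 genes were found, 37 of them members. In pair 3, 42 of the 48 (87.5%) were below control with Etr1>Bra, against 55.0% of 9024 genes at the floor. Their median E there was −1.19 and their median T −0.01, and 77.1% were at −0.5 or lower, against 5.73% of all genes. T exceeded E in 45 of the 48 (93.8%), against 47.6% of all genes.

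The left-out change was smaller in the other pairs. With pair 1 left out, 192 genes were found and 138 (71.9%) were below control in pair 1, against 51.5% of all genes, with a median E of −0.16. At −0.5 or lower were 15.1%, against 4.39% of all genes. With pair 2 left out, 194 genes were found and 145 (74.7%) were below control in pair 2, against 54.6%, with a median E of −0.30. At −0.5 or lower were 34.0%, against 2.09% of all genes. T exceeded E in 66.1% and 56.2% of these genes in the left-out pair, against 47.3% and 50.7% of all genes. The 3 lists share genes, and the bounds of the rule had been set with all libraries known and the deposited scaling used every library of a table, so these shares are a description.

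**Figure D5:**
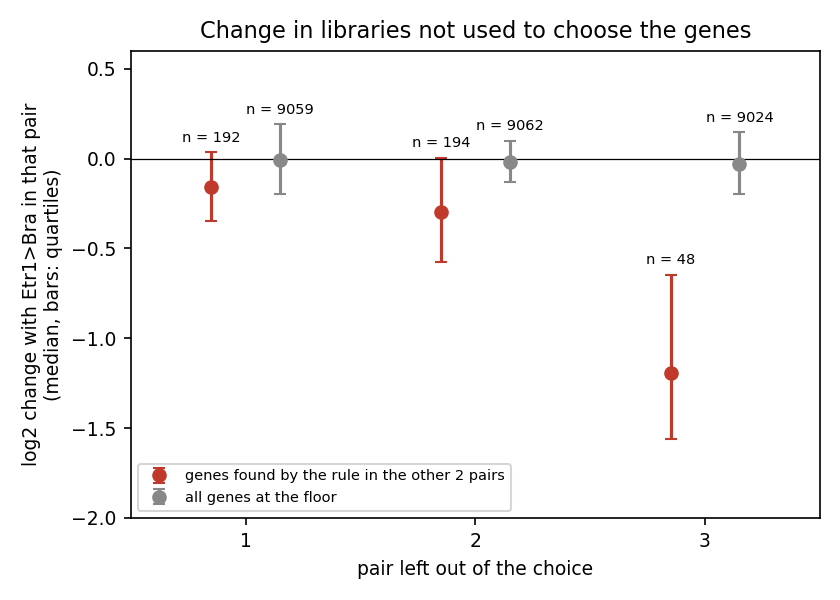
Median log2 change with Etr1>Bra (points, bars from the lower to the upper quartile) in the pair named on the x axis, for genes found by the rule in the other 2 pairs (red) and for all genes at the control floor (grey). The red medians are −0.16, −0.30 and −1.19, and the grey ones lie near 0.

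Members were less abundant than other genes at the floor, with a median control mean of 134 against 307. A control mean of 50 to 100 was seen in 37 members (35.2%, against 16.7% of genes at the floor), and one of 500 or more in 19 (18.1%, against 35.7%). The 19 abundant members had a median E of −0.27, −0.62 and −1.22 in pairs 1, 2 and 3 and a median T of −0.09, 0.16 and −0.05. For the 37 least abundant, the medians of E were −0.46, −0.57 and −0.98. The order of the pairs was thus the same at both ends of the range. Counting error was largest for KH.C7.91, with 10 reads in 1 library, where an exact Poisson 95% interval runs from 4.80 to 18.4 reads and covers counting error only.

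Controls of the members also varied more than those of other genes, with a median coefficient of variation of 16.5% against 12.1% over genes at the floor. Members were less abundant and the rule used the control values, so this difference is not read as a trait of the members. For the members the coefficient was 42.9% in the Etr1>Bra libraries and 16.1% in the Tbx6-r.b>Bra libraries. The rule used these values too, and they were not computed over all genes. Each member's log2 profile over the 9 libraries was compared with the mean standardized profile of the other members. Pearson's r had a median of 0.89 and was at least 0.9 in 49 members. The 9 points share their groups, and the rule itself gives members a common pattern, so these values describe how closely single members follow it. The highest values were those of KH.C2.48 (0.989), KH.S595.17 and KH.C9.224 (both 0.986). The lowest were those of KH.C9.111 (0.398), KH.C14.475 (0.407), KH.L156.7 (0.430) and KH.C11.95 (0.457).

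Likeness between single members was read in the same way. The members most like KH.C11.95 over the 9 libraries were KH.L71.1 (r = 0.782), KH.C6.290 (0.780) and KH.C5.407 (0.766), all from the 6 deepest in pair 1. For KH.L172.15, the next member by mean E with a control mean of at least 200 and added after values were seen, they were KH.S1066.3 (0.986), KH.C7.455 (0.982) and KH.C2.867 (0.970). KH.L172.15 stood at 534, 385 and 400 in the controls, at 391, 211 and 103 with Etr1>Bra, and at 428, 358 and 333 with Tbx6-r.b>Bra.

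By the first part of their IDs, members came from many of the assembly's sequences, and the whole group was 105 of 9079 genes at the floor. IDs beginning with KH.C made up 73.3% of members and 71.6% of all genes at the floor. KH.C1 held 11 members of 813 genes at the floor, KH.C9 10 of 547 and KH.C7 8 of 495. Of the smaller sequences, KH.L172 held 3 members of 26 genes (11.5%) and KH.L144 2 of 12 (16.7%), higher shares than KH.C1 (1.35%). These counts were not tested. Consecutive numbers occurred in 2 pairs of members, KH.L144.13 with KH.L144.14 (r = 0.974 over the 9 libraries) and KH.L172.14 with KH.L172.15 (r = 0.897). How often they occur among other genes was not computed. Members share a pattern by choice, and KH.L172.15 had a higher r with KH.S1066.3 (0.986), so these values are not read as a trait of neighbours. Neither the counting program nor its strand setting is stated, and reads of overlapping or antisense neighbours cannot be told apart in pairs with consecutive numbers.

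In fits across all genes, limma with Benjamini-Hochberg adjustment called 0 of 105 members lower with Etr1>Bra against control, where 0.00869% of 11514 genes were called. At an unadjusted p under 0.05 it had 58 members, and 0.999% of all genes. The edgeR quasi-likelihood test called 0 members (0.00869% of all genes) and DESeq2 called 1, KH.C12.469 (0.0174%). Fits without a block ignore the pairing by replicate number that E and T use. Adding a block for the replicate number gave 37 members by limma, where 0.391% of all genes were called, namely 45. Without replicate 1 it was 86 members among 326 genes called, without replicate 2 it was 0 of 0, and without replicate 3 it was 21 of 32. Lower calls against control in the muscle-driven group numbered 0 members by limma (0.0262% of all genes), and 0 at an unadjusted p under 0.05 (1.22%). The count was also 0 by edgeR (0.0262%) and by DESeq2 (0.175%). Under the block limma had 1 (0.917% of all genes), which was KH.C11.95. Its T was −3.21, −0.26 and 0.11 in the 3 pairs. The blocked limma fits of both comparisons with Tbx6-r.b>Bra used a spread fitted over all genes as a trend with abundance, not that of the single gene. Between the constructs limma called 0 members higher with Tbx6-r.b>Bra (0% of all genes), and had 46 at an unadjusted p under 0.05 (0.867%). The edgeR test called 0 (0%) and DESeq2 0 (0.0174%). The block gave 52 (0.876% of all genes), that is 52 members among 101 genes called. This became 31 among 49 when replicate 1 was left out, 0 among 0 when replicate 2 was, and 0 among 25 when replicate 3 was. These contrasts chose the members, so nothing is read from the counts.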

How the data were processed

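Expression was measured by RNA sequencing (stranded mRNA kit, per the labels' protocols) in 9 whole-embryo libraries. The authors deposited 2 tables, each with the 3 control libraries and 3 libraries of 1 construct. Each holds, per the file headers, normalized read counts (a signal of 0 or more) and, in other columns, the authors' regularized log2 values. The submitters' processing notes name TopHat2 2.9.8b and DESeq 1.8.1. No counting program, strand setting or genome build is given in the sources used here.

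All normalized values were whole multiples of a step per library (100%, tolerance 0.01), so reads were recovered. Main tests on log2(normalized count + 1) used limma 3.58.1 under R 4.3.3, with its trend option, for genes whose mean was at least 10, two-sided, with Benjamini-Hochberg adjustment at 0.05. A fold change on this scale understates that of low genes. Constructs were compared on reads rescaled together by median of ratios over all 9 libraries. edgeR 4.0.16 and DESeq2 1.42.0 were run on recovered reads as alternatives, and limma with and without the block, edgeR and DESeq2 were each run on simulated counts first.

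Same-numbered libraries deviated together (correlations of 0.48 to 0.72 over 11494 genes), so the titles' numbers were taken to pair the samples. Replicates differed by more than sampling noise (chi-square per gene of at least 11.0). Members, bounds and lists were chosen with earlier results of these data known. Named are the 6 lowest by mean E, the 4 most abundant, the 4 with the largest difference, the 3 highest and 3 lowest by mean T, any called by unblocked limma, and genes next to the bounds. Others are named where the text says so or where a count is small.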

Additional observations from a re-analysis of the deposited data

Results flagged for a closer look

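In 5 members every Etr1>Bra library was below, and every Tbx6-r.b>Bra library above, the control of its replicate number. The mean T minus the mean E was 1.09 in KH.C9.602, 1.02 in KH.L153.77, 0.856 in KH.L20.60, 0.770 in KH.C11.102 and 0.765 in KH.C2.1056. KH.C9.602 stood at 364, 297 and 307 in the controls, at 290, 160 and 100.2 with Etr1>Bra, and at 399, 345 and 317 with Tbx6-r.b>Bra. Its Etr1>Bra libraries lay below all controls and its Tbx6-r.b>Bra libraries overlapped them. KH.C11.102 stood at 702, 981 and 886 in the controls, at 586, 655 and 433 with Etr1>Bra, and at 776, 1018 and 1014 with Tbx6-r.b>Bra, with the same division. The rule chose members for this difference, so it was not tested, and all 3 values of T above 0 were seen in 10.1% of genes at the control floor. Outlying samples were not looked for, because each group had 3 libraries.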

How the results depend on the processing

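The number of members was 105 and within 1.5 times that with another pseudocount, TMM or joint scaling, or a difference of at least 0.5. It was 6 with regularized log2 values, which are shrunken by construction, 189 with a control floor of 20, 68 with a floor of 100 and 11 with a mean E of −1 or less. With 1 replicate number left out it ran from 48 to 194. Entries below control in the left-out pair, 325 of 434 over the 3 lists, were 28 of 31 with regularized log2 values. A gene in more than 1 list counts in each, and the differing shares of the single lists stand above beside those of all genes. Members called lower with Etr1>Bra numbered 0 without the replicate block, 37 with it (of 45 genes called in all), 34 with the block in edgeR (of 46), 1 with DESeq2 (of 2), 17 with the block in DESeq2 (of 21) and 66 in the blocked fit of all 9 libraries (of 84). Leaving out single libraries gave 0 to 7 (7 of 9 genes called without Etr1>Bra replicate 1), and single pairs in the block 0 to 86 (86 of 326 without replicate 1, 21 of 32 without replicate 3). With Tbx6-r.b>Bra the count of 0 became 1 with the block in limma (of 105) and edgeR (of 104), and 0 to 1 without single pairs (of 38 to 108). Between the constructs it became 52 with the block (of 101), 47 in edgeR (of 91), 3 in DESeq2 (of 7) and 29 in the blocked fit of all 9 libraries (of 40). Leaving out single libraries gave 0 to 10 (10 of 10 without Etr1>Bra replicate 1), and single pairs in the block 0 to 31 (of 0 to 49). The cause of these shifts was not tested. The blocked limma fits of both comparisons with Tbx6-r.b>Bra rest on a spread fitted over all genes as a trend with abundance. Of 152 values of single members under other scalings and pseudocounts, 143 moved by less than their SD over pairs, and the 9 others moved with regularized log2 values. Leaving out a pair made the mean E of 12 of 19 named members smaller by over 1.5 times, 9 of them without pair 3 and 3 without pair 1. Depth limits the least abundant members most.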
